A study of Mus musculus with 4 samples.

Results

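The genes described here move chloride, potassium and sodium ions, and with them water, across the intestinal epithelium. They are Cftr, Slc12a2, Kcnq1 and Kcne3 of crypt fluid secretion and Slc9a2, Slc9a3, Atp1b1 and Slc34a2 of sodium absorption, 8 genes listed by name. Of these, 6 were measured among the 12393 genes tested. Slc9a2 and Slc9a3 had no probe set under the platform annotation (0 probe sets each) and were not analysed here. Of the genes listed under sodium absorption, only Atp1b1 of the sodium pump and the sodium-phosphate cotransporter gene Slc34a2 remain. Each gene was read on its brightest probe set, the one with the highest mean over the arrays.

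RNA from proximal intestinal epithelium of C57BL/6 mice, 4 to 6 weeks old, was hybridised to 4 arrays, 1 per sample. The stem group (2 arrays) was wild-type Lgr5(hi) cells sorted by flow cytometry, Lgr5 being the receptor that marks crypt base stem cells. The enterocyte group (2 arrays) was villus cells of conditional Atoh1 knockout mice, detached with EDTA, a model in which the transcription factor needed for secretory cells is lost. The protocol text of both groups, wild-type samples included, gives tamoxifen at 1 mg a day over 5 days and a further 5 days of waiting. The driver of the recombinase, the deleted part of Atoh1 and the animals behind each array are not given in the sources used here. Arrays within a group are labelled biological replicates, and where they did not come from separate animals the p-values measure only the spread between these samples. Cell type, genotype and isolation changed together, and their parts in a difference cannot be told apart. In such bulk RNA, fewer cells of a type and less RNA per cell cannot be told apart.

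In the intestine, fluid is secreted mainly in the crypts and absorbed mainly on the villi. A secreting cell loads chloride through the basolateral sodium-potassium-chloride cotransporter encoded by Slc12a2 and releases it into the lumen through the CFTR channel. Basolateral potassium channels, among them the KCNQ1 pore with its KCNE3 subunit, let potassium leave again and so keep the driving force for chloride exit. On the villus, apical sodium-proton exchangers and sodium-coupled nutrient carriers take up sodium, and the basolateral sodium pump, of which Atp1b1 encodes the beta 1 subunit, expels it.

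Upstream sequences are shown for members that differed in opposite directions. The letters TATATA were noticed only on reading them and are in both members higher in enterocytes. Slc12a2 and Kcnq1, both lower in enterocytes, had no promoter sequence, so presence of these letters cannot be compared by direction. The RefSeq promoter table (GRCm38.p6) held 4 of the 6 measured genes, namely Cftr, Kcne3 with 2 start sites, Atp1b1 and Slc34a2. The 250 bases before the start are printed 5′ to 3′ on the gene's strand, with TATATA in capitals. The windows are chr1:164458356-164458605 on the minus strand for Atp1b1, chr5:53049103-53049352 on the plus strand for Slc34a2 and chr6:18170437-18170686 on the plus strand for Cftr.
Atp1b1: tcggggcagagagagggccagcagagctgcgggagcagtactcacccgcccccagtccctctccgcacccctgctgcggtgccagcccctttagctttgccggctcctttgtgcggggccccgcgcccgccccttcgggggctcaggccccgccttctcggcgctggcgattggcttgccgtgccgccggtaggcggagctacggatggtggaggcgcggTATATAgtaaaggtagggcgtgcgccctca
Slc34a2: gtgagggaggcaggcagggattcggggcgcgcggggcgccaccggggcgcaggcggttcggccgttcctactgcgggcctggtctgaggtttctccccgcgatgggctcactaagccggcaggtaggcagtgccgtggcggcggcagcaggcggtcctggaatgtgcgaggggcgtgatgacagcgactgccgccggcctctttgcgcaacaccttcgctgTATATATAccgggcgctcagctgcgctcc
Cftr: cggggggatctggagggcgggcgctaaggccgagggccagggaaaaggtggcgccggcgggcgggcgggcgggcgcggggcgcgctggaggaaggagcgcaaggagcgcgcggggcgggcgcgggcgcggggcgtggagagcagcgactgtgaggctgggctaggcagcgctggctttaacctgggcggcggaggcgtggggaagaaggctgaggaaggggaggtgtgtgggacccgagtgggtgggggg
The letters TATATA began 30 bases before the start in Atp1b1 and, as overlapping copies, 29 and 27 bases before it in Slc34a2. They were absent from the window of Cftr and from both windows of Kcne3. This motif was added after the sequences were seen, and 5.25% of all 32851 promoter windows hold it. The windows of Atp1b1, Slc34a2 and Cftr were rich in G and C, at 70.4%, 69.6% and 76.4%, against a median of 52.4% over all windows, while those of Kcne3 had 46.8% and 58%. Of the other motifs searched on both strands, CTTTGA (the TCF/LEF core) was in 13.8% of all windows, TTTATG (the CDX core) in 10.8%, AGATAA, bound by factors of the GATA family, in 9.99%, GTTAAT (part of the HNF1 site) in 6.43% and TGACG (part of the cyclic AMP response element) in 17.8%. None of these 5 was in any of the 5 windows of the members, which says only that these letters are not in these windows.

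The groups separated as labelled. Atoh1 was at log2 7.43 and 7.71 in the stem arrays and at 5.06 and 5.28 in the enterocyte arrays, at least 2.63-fold lower, though where its probes lie relative to the deletion is not known. Lgr5 fell by 4.64 ± 0.36 (log2, SE, adjusted p = 0.00584 by limma). All 8 measured enterocyte markers were higher and all 8 stem cell markers lower in the enterocyte group. Markers of other cells moved with the groups too. Summed intensity of 5 goblet markers was 35298 to 41502 in stem and 562 to 1106 in enterocyte arrays. That of 3 Paneth markers was 29076 to 38064 against 381 to 2845, and that of 7 enteroendocrine markers 6231 to 7947 against 638 to 751. Within these sums Mmp7 (Paneth, adjusted p = 0.17 by limma) and the enteroendocrine genes Cck (0.158) and Sct (0.542) were not called. Conversely, 7 lymphocyte markers summed to 377 to 486 in stem and 5971 to 7988 in enterocyte arrays, with 5 of 7 below background in stem cells. The 3 tuft markers summed to 281 to 562 and to 1766 to 2761. Of 8 stroma and muscle markers 6 lay below background in each group, as did all 3 red cell markers. The array's own control probe sets also differed: the log2 excess of 3′ over 5′ signal was 1.70 and 1.92 for Gapdh in stem arrays against 0.15 and 0.17 in enterocyte arrays, and 2.06 and 2.10 against 0.56 and 0.50 for beta-actin. Control probe sets for non-mouse sequences differed too. BioB (3′ probe set) was at 7.94 and 8.14 in stem and at 5.95 and 5.70 in enterocyte arrays, a difference of -2.21. BioC (-0.77) and BioDn (-0.64) fell less on their 3′ probe sets, and CreX hardly moved (-0.04). Some went the other way, such as the 5′ probe set of ThrX (1.48). The part of these markers and control differences in the results below was not tested.

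All 4 secretion genes were lower in enterocytes, and both measured genes listed under sodium absorption were higher. Neither of these 2 encodes a sodium-proton exchanger, so they do not stand for sodium absorption as a whole. The members were chosen with earlier results of these data known, so the split by direction is a description and not a test. Levels are log2 normalized intensity, differences are enterocyte minus stem with n = 2 arrays per group, and adjusted p-values are from limma over all 12393 genes, with 0.05 as the threshold. At that threshold 40.6% of all genes were called, 22.4% lower and 18.2% higher, so a call was common on these arrays. The split rests on the scaling: 2257 genes were higher and 2779 lower as deposited, against 1251 and 9078 with arrays centred on the median level of 8 reference genes. That scaling moved the median difference of all genes to -0.70 and so favours calls as lower. All 4 secretion genes were called lower in it, which adds no support. Atp1b1 lost its call there (0.37, adjusted p = 0.107 by limma), while Slc34a2 kept its own. The groups did not overlap in any of the 6 members, as in 65.3% of all genes. The median difference of the 6 members was -1.33, against -0.0026 over all genes. With 4 members lower and 2 higher, this median follows the make-up of the list and is not a result about it. Without stem replicate 1 or without stem replicate 2 limma called 0 members and 0 genes in all, with 3 and 4 members at an unadjusted p under 0.05. Without either enterocyte array 2 members were called, Kcne3 and Slc34a2.

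**Figure D1:**
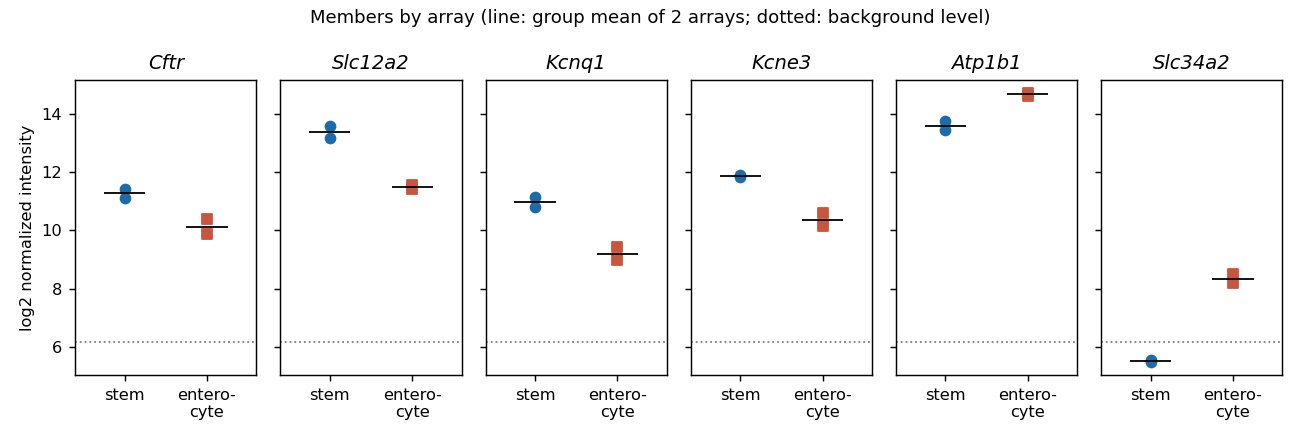
Log2 normalized intensity (vertical axis) of the 6 measured members on each array, stem arrays as circles and enterocyte arrays as squares, with the mean of 2 arrays as a line and the background level of 6.17 dotted. Cftr, Slc12a2, Kcnq1 and Kcne3 lie lower in enterocytes, Atp1b1 and Slc34a2 higher, and only the stem arrays of Slc34a2 lie under the background level.

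Slc12a2, the chloride loader, was at 13.57 and 13.17 in the stem arrays and at 11.43 and 11.57 in the enterocyte arrays. Both stem arrays lay well above both enterocyte arrays. The gene fell by 1.87 ± 0.17 (log2, SE, adjusted p = 0.00759 by limma), a 3.66-fold decrease with a 95% interval of 2.53 to 5.30. Among all genes tested, 4.59% had a difference as low or lower. Its 3 probe sets fell together but by different amounts. In a fit over all 20380 probe sets, of which 37.3% were called (17.8% higher and 19.6% lower), the brightest gave -1.87, the second -2.41 ± 0.12 (adjusted p = 0.00445) and the dimmest -2.76 ± 0.12 (adjusted p = 0.004), the last a 6.79-fold decrease. The size of the fall therefore depends on the probe set, while its direction did not.

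Cftr, the luminal chloride channel, was at 11.44 and 11.11 in stem cells and at 9.87 and 10.39 in enterocytes. The groups did not overlap, and the enterocyte arrays lay farther apart than the stem arrays. Cftr was 2.21-fold lower in enterocytes (95% interval 1.30 to 3.75), a difference of -1.14 ± 0.25 (SE, adjusted p = 0.0426 by limma). This was the member nearest to the threshold. In each enterocyte array Cftr remained above the background level of 6.17, the 90th percentile of the mean levels of 26 genes of other organs. The second probe set of Cftr read 4.45, 4.45, 4.36 and 4.45, below background on every array, with a difference of -0.05 ± 0.06. With that probe set in its place no change of Cftr was called (adjusted p = 0.59 without probe sets whose suffix marks possible shared sequence). The fall of Cftr thus rests on 1 probe set, and that one carries such a suffix. Its adjusted p was 0.0875 with the replicate number as a block. With dim values raised to background it was 0.114, though none of the values of this probe set was itself raised.

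Kcnq1, the pore of the basolateral potassium channel, was at 11.16 and 10.81 in stem cells and at 9.44 and 8.97 in enterocytes. It fell by 1.78 ± 0.24 (adjusted p = 0.0144 by limma, 0.0525 with dim values raised to background), a 3.43-fold decrease with a 95% interval of 2.08 to 5.64. None of the values of Kcnq1 was itself raised in that setting. Kcne3, which encodes the subunit that holds this channel open, was at 11.85 and 11.92 against 10.59 and 10.14. It fell by 1.52 ± 0.19 (adjusted p = 0.0124 by limma), a 2.87-fold decrease with a 95% interval of 1.94 to 4.26. Each gene had 1 probe set, and in each the stem arrays lay above the enterocyte arrays. The log2 ratio of Kcne3 to Kcnq1 within an array was 0.69 and 1.12 in stem and 1.15 and 1.17 in enterocyte arrays. Its change was 0.26, and 2 against 2 arrays cannot show or exclude a change in it by a two-sided exact permutation test, whose smallest p is 0.333. The ratio differed more between the stem arrays than between the group means.

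Atp1b1, the beta 1 subunit that carries the sodium pump to the membrane, was at 13.46 and 13.75 in stem cells and at 14.72 and 14.63 in enterocytes. It was strongly measured in both groups, so it is not particular to enterocytes, and it was higher in both enterocyte arrays. The rise was 1.07 ± 0.13 (SE, adjusted p = 0.0127 by limma), or 2.09-fold with a 95% interval of 1.58 to 2.77. Of its 5 probe sets 4 rose, 3 of them by 1.03 to 1.07 and the fourth by 1.92 ± 0.18 (adjusted p = 0.0093). The dimmest, at a mean of 7.21, gave -0.17 ± 0.18 and was not past the test. The rise was 0.37 ± 0.21 (adjusted p = 0.107) when each array was centred on the median level of 8 reference genes, a scaling that moved the median difference of all genes to -0.70.

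Slc34a2, the sodium-phosphate cotransporter of the brush border, was at 5.48 and 5.56 in stem cells and at 8.50 and 8.19 in enterocytes. The stem level was not above background, so the fold is a lower bound: the gene was at least 4.50-fold higher in enterocytes (difference 2.82 ± 0.14 SE, adjusted p = 0.00341 by limma). The measured group means were 5.52 and 8.34. With values raised to background the difference was 2.17 ± 0.14. A single probe set represents it.

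**Figure D2:**
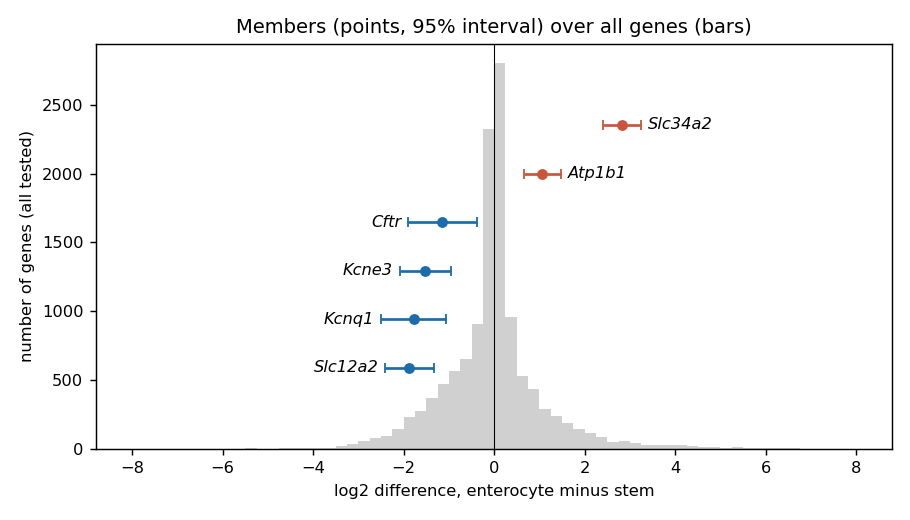
Log2 difference, enterocyte minus stem, of each member (points with 95% intervals, placed at arbitrary heights) over a histogram of the differences of all 12393 genes (bars, number of genes). The 4 secretion genes lie at -1.87 to -1.14 and the measured genes listed under absorption at 1.07 and 2.82.

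**Figure D3:**
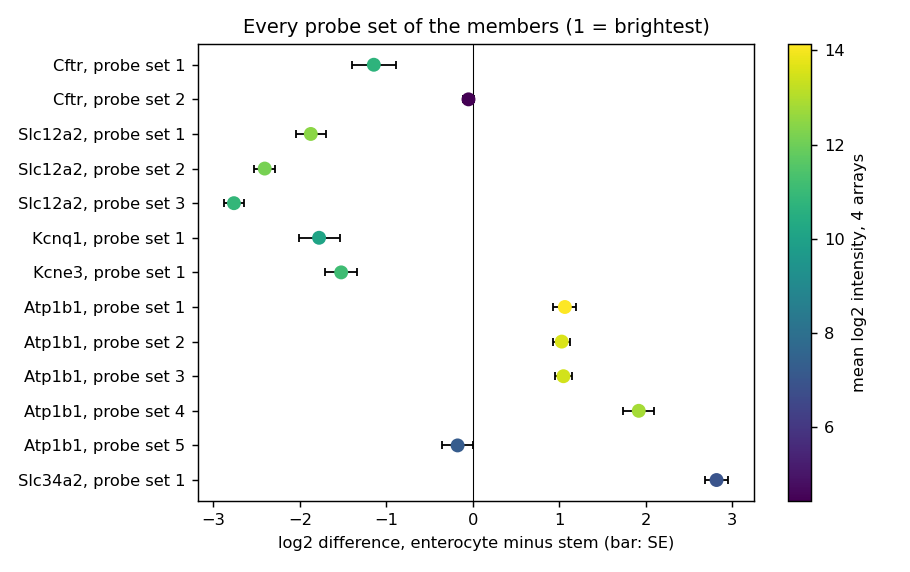
Log2 difference, enterocyte minus stem (horizontal axis, bars are SE), of all 13 probe sets of the members, coloured by mean log2 intensity over 4 arrays and numbered from the brightest of each gene. The dimmest probe sets of Cftr and Atp1b1 lie at -0.05 and -0.17, and the 3 of Slc12a2 at -1.87, -2.41 and -2.76.

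From the lowest fitted difference, the order of the members was Slc12a2, Kcnq1, Kcne3, Cftr, Atp1b1 and Slc34a2. The 95% intervals of all 4 secretion genes overlapped, so their order among each other is not settled. Those of Atp1b1 (0.66 to 1.47) and Slc34a2 (2.40 to 3.24) did not. Likeness was measured as the root mean square distance between log2 values centred per gene over the 4 arrays, as a description. Kcnq1 and Kcne3 were the nearest pair of members, at 0.197, but 251 of all genes were nearer to Kcnq1 than Kcne3 was. The genes most like Kcne3 were Pdia5 (0.00795), Fundc2 (0.0192) and Sf3a2 (0.0359). Those most like Kcnq1 were Repin1 (0.0302), Paics (0.0349) and Knstrn (0.037), and those most like Slc12a2 were Bub1b (0.0341), Ptbp2 (0.0389) and Chd6 (0.0502). Cftr was nearest to Xpo1 (0.0249), Rbm26 (0.0463) and Septin10 (0.0623). Atp1b1 was nearest to 2410004B18Rik (0.0385), Abhd5 (0.0414) and Tex12 (0.0463), and Slc34a2 to Hagh (0.074), Slc13a2 (0.0824) and Sprr2k (0.0963). With only 4 arrays in 2 groups, many genes with a like difference lie close by this measure.

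Other genes of ion and water transport were taken from 6 lists of 104 genes, of which 82 were measured. In these lists 29 genes rose, 14 fell and 39 did not pass the test, with a median difference of 0.13, beside 18.2% higher and 22.4% lower among all genes. The same shares stand beside the count of each list below, and no list was tested as a set. Of the 43 called genes 23 were also called in every other setting tried with all arrays. Without either stem array 0 of them were called.

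Among other chloride and potassium channels and carriers, 3 of 18 rose, 5 fell and 10 did not pass, at a median of -0.06. Kcnn4, the calcium-activated potassium channel of the basolateral membrane, was at 12.15 and 12.40 in stem cells and at 9.70 and 9.20 in enterocytes, and fell 7.09-fold (-2.82 ± 0.23 SE, adjusted p = 0.00603). Its dimmest probe set gave -1.99. The potassium channel gene Kcnk5 instead rose 4.58-fold (2.19 ± 0.13 SE, adjusted p = 0.00419), from 7.93 and 7.88 to 10.25 and 9.94. Clcn2, a chloride channel, rose 2.84-fold (1.51 ± 0.13 SE, adjusted p = 0.00647). Ano1, a calcium-activated chloride channel, was at least 2.47-fold higher, its stem level being under background, and missed the threshold with values raised to background (adjusted p = 0.0572). The remaining falls were all in the Clca family, secreted proteins that modulate calcium-activated chloride currents, with Clca1 at least 6.35-fold, Clca3a1 at least 10.2-fold and Clca3a2 at least 6.44-fold lower and Clca3b at -2.52 ± 0.30. These falls stand beside the fall in goblet cell markers, whose part was not tested. Clca genes are close copies of each other that probe sets may share, and Clca1, a goblet cell product, gave -0.08 on its dimmest probe set, while Clca3a1 gave -5.03 on its dimmest one. Slc4a4, the basolateral sodium-bicarbonate cotransporter, differed by 0.83 ± 0.27 (adjusted p = 0.1), which was not past the test. Kcne1, Kcne2 and Kcne4, relatives of Kcne3, lay below background in both groups.

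Of other sodium pump subunits and FXYD proteins, small regulators of the pump, 1 of 9 rose, 1 fell and 7 did not pass, at a median of -0.07. Fxyd3 fell 3.05-fold (-1.61 ± 0.08 SE, adjusted p = 0.00341), from 10.18 and 10.15 to 8.49 and 8.64. Fxyd5 differed by 0.77 ± 0.07 (adjusted p = 0.00714) but lay below background in both groups, and no fold is given. The beta 3 subunit gene Atp1b3 was at 9.87 and 9.67 in stem and 9.67 and 9.48 in enterocyte arrays, a difference of -0.20 ± 0.12 that was not past the test (adjusted p = 0.31).

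Other routes of sodium entry and the chloride exchangers coupled to it gave 3 rises, 2 falls and 5 genes not past the test among 10, at a median of 0.09. Slc26a6, an anion exchanger of the brush border, was at 8.10 and 7.95 in stem cells and at 13.03 and 13.08 in enterocytes, and rose 32.6-fold (5.03 ± 0.08 SE, adjusted p = 0.00231). Slc26a3, the chloride-bicarbonate exchanger that works beside sodium-proton exchange, rose 8.76-fold (3.13 ± 0.20 SE, adjusted p = 0.0044) on its brightest probe set, with a smaller difference of 1.34 on the dimmest and 2.23 on the mean over probe sets. Slc5a1, the sodium-glucose cotransporter, rose 11.4-fold (3.52 ± 0.11 SE, adjusted p = 0.00261), from 11.15 and 11.06 to 14.74 and 14.50, and gave 4.32 on its dimmest probe set. Slc9a8, the one sodium-proton exchanger measured, gave -1.10 ± 0.15 (adjusted p = 0.0143), but its dimmest probe set read 0.28 and missed the threshold. The phosphate carrier gene Slc20a2 gave -1.16 ± 0.13 (adjusted p = 0.01), but its dimmest probe set read 0.38 and likewise missed the threshold. Scnn1b and Scnn1g, subunits of the epithelial sodium channel, lay below background in both groups, and Scnn1a read 6.63 on all 4 arrays.

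Scaffolds and kinases that act on these transporters were mostly higher in enterocytes, with 13 of 18 rising, 3 falling and 2 not past the test, at a median of 0.97. With each array centred on the level of reference genes 8 rose, and 10 rose with the replicate number as a block. Pdzk1 and Slc9a3r1, scaffolds that hold exchangers and CFTR at the brush border, rose at least 19.4-fold and 3.79-fold (4.59 ± 0.24 and 1.92 ± 0.07 SE), and Slc9a3r1 gave 2.76 on its dimmest probe set. Sgk1, a kinase that stimulates sodium absorption, was at 9.45 and 8.71 in stem cells and at 13.27 and 13.15 in enterocytes, a 17.5-fold rise (4.13 ± 0.30 SE, adjusted p = 0.00529). Its relative Sgk2 was at least 13.9-fold higher. Ezr, which encodes ezrin, the link of these scaffolds to actin, rose 5.48-fold (2.45 ± 0.08 SE, adjusted p = 0.00261) on its brightest probe set but read 0.31 on the dimmest one, which missed the threshold. The 3 falls were all in the WNK kinase cascade, which phosphorylates and activates the cotransporter encoded by Slc12a2. Wnk4 was at least 6.03-fold lower, at 8.73 and 8.80 in stem cells and 5.81 and 5.75 in enterocytes. Stk39, the kinase SPAK that WNK kinases activate, fell 2.35-fold (-1.23 ± 0.18 SE, adjusted p = 0.0179), and Wnk1 fell 1.73-fold (-0.79 ± 0.09 SE, adjusted p = 0.011). Wnk1 read -0.53 on its dimmest probe set, which missed the threshold (adjusted p = 0.403). Stk39 missed it with values raised to background (adjusted p = 0.0593), though none of its own values was raised. Oxsr1, the relative of SPAK in the same cascade, gave 0.33 ± 0.07 (adjusted p = 0.0448), a value that turned to -0.36 and -0.09 under the 2 centrings on reference genes.

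Receptors and second messengers that start or restrain secretion gave 6 rises, 1 fall and 13 genes not past the test among 20, at a median of 0.13. Of the 20, 13 lay below background in stem cells and 11 in enterocytes. As the list holds genes that start and genes that restrain secretion, the counts are not counts of genes that promote secretion. Guca2b, which encodes uroguanylin, the peptide that opens CFTR through the guanylate cyclase Gucy2c, was at 8.85 and 9.43 in stem cells and at 13.18 and 13.42 in enterocytes. It rose 17.9-fold (4.16 ± 0.25 SE, adjusted p = 0.00416). Gucy2c itself gave 0.45 ± 0.09 (adjusted p = 0.0375), which turned to -0.25 when arrays were centred on the level of reference genes. Ptger4, a prostaglandin E2 receptor, rose 2.22-fold (1.15 ± 0.11 SE, adjusted p = 0.0078) and gave 2.47 on its dimmest probe set, and P2ry1, a nucleotide receptor, was at least 3.13-fold higher. Prkar2a, a regulatory subunit of protein kinase A, gave 0.84 ± 0.15 (adjusted p = 0.0274) but was below background in both groups. Adcy6, an adenylyl cyclase that makes the cyclic AMP on which CFTR opening depends, was the one gene of the list to fall, by 1.27 ± 0.13 (adjusted p = 0.00885), from 11.70 and 11.40 to 10.28 and 10.28.

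Of the water channels, 3 of 7 rose, 2 fell and 2 did not pass, at a median of 0.19. Aqp4 and Aqp1 fell 7.23-fold and 4.48-fold (-2.85 ± 0.25 and -2.16 ± 0.22 SE, adjusted p = 0.00711 and 0.00903 by limma). Aqp4 was at 10.26 and 10.37 in stem cells and at 7.15 and 7.77 in enterocytes. The size for Aqp4 depends on the probe set, with -1.43 on the dimmest and -2.14 on the mean over probe sets. Aqp7 and Aqp3, which also carry glycerol, were at least 7.27-fold and at least 4.43-fold higher, both from a stem level under background. Aqp3 missed the threshold with values raised to background (adjusted p = 0.0665). Aqp8 gave 1.19 ± 0.27 (adjusted p = 0.0456) but was below background in both groups.

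**Figure D4:**
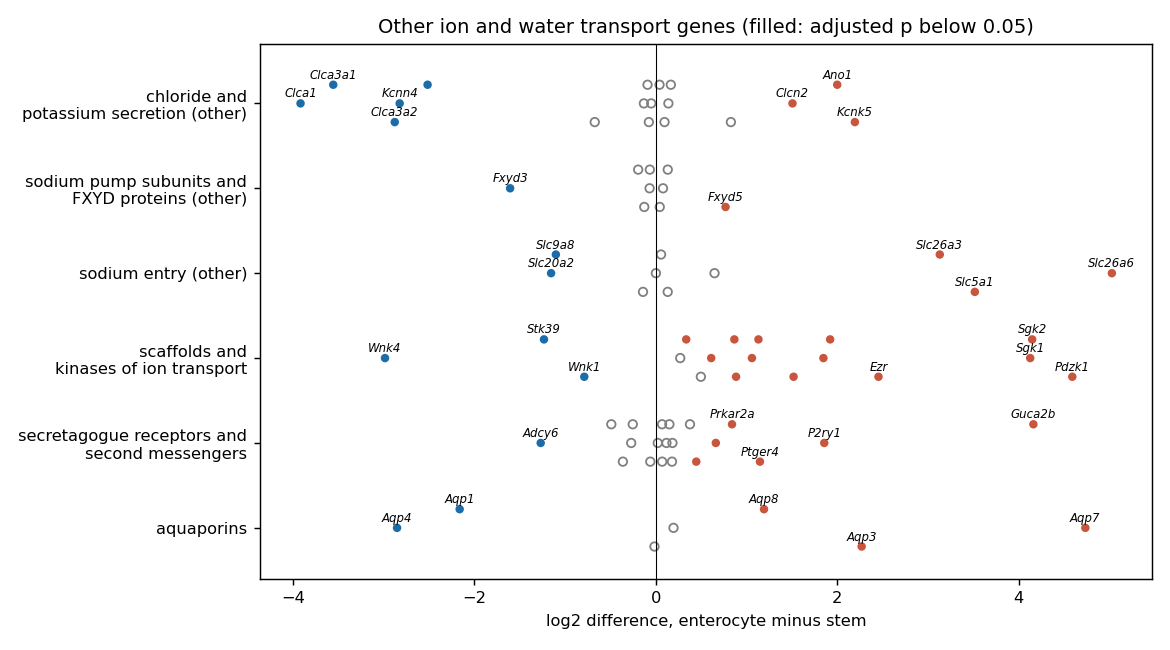
Log2 difference, enterocyte minus stem (horizontal axis), of the 82 measured genes of 6 lists of ion and water transport, 1 row per list with points spread vertically for legibility. Filled points have an adjusted p under 0.05 and named points are those with the largest called differences of each list in each direction.

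**Figure D5:**
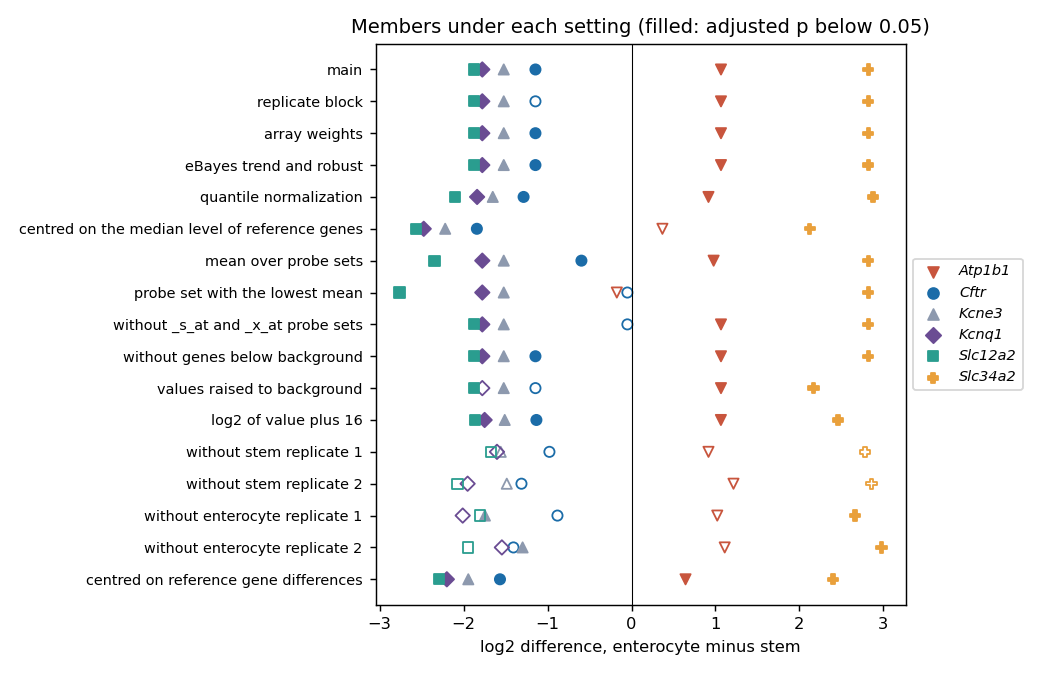
Log2 difference, enterocyte minus stem, of the 6 members (1 marker each) under the main setting and every alternative (rows), filled where the adjusted p was under 0.05. The secretion genes stay left of 0 and Slc34a2 right of 0 in every row, and Atp1b1 lies left of 0 only on its dimmest probe set.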

How the data were processed

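RNA was measured on 4 arrays (2 stem, 2 enterocyte) of 22690 probe sets. The deposited values are linear, normalized intensity per probe set, between 7.93 and 41703.8 (medians per array 102.4 to 110.6). RMA is named, without a version, per the submitters' processing notes. The sources used here do not say how arrays were normalized against each other. The log2 of each intensity was taken, with no pseudocount. Exactly 1 symbol was given for 20380 probe sets other than controls, and the brightest of each gene was kept (12393 genes). The groups were compared by two-sided moderated tests (R 4.3.3, limma 3.58.1, functions lmFit and eBayes, 2 residual and 1.23 prior degrees of freedom). P-values were adjusted across all genes by the method of Benjamini and Hochberg. Replicates had identical values in 1268 genes of the stem and 1048 of the enterocyte group, which lowers the spread seen. "At least" folds raise the dim group's arrays to the background level, log2 6.17, and leave out the spread between arrays. The number of arrays limits the precision.

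Members and lists were chosen with earlier results of these data known. Named genes are all measured members, Atoh1, Lgr5, up to 4 called genes per list and direction with the largest difference, and the 3 genes most like each member. Other genes printed, among them Slc9a3r1, Clca3b, Slc4a4, Atp1b3, Gucy2c, Oxsr1, the Kcne and Scnn1 genes and those the lists' limits concern, were chosen after their values were seen. Ratios with Slc9a2 or Slc9a3 could not be formed. The limma fit was tried on simulated data with known changes, and the recovery found is not reported here. Alternatives covered model, weights, variance prior, scaling, probe set choice, dim values, pseudocount and leaving out each array.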

Additional observations from a re-analysis of the deposited data

How the results depend on the processing

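Leaving out 1 array moved the differences to between -2.07 and -1.67 for Slc12a2, -2.01 and -1.54 for Kcnq1, -1.75 and -1.30 for Kcne3, -1.41 and -0.88 for Cftr, 0.92 and 1.21 for Atp1b1 and 2.66 and 2.98 for Slc34a2, with no change of direction. The adjusted p of Cftr then lay between 0.104 and 0.247. Members called as higher ranged from 0 to 1 and as lower from 0 to 1, and all genes from 0 to 663 higher and from 0 to 1058 lower. The same-numbered replicates did not deviate together (correlation 0.0504) and nothing in the labels pairs them. With the replicate block Cftr, at -1.14, was not called (adjusted p = 0.0875), and the other 5 members kept their calls. Of the called list genes, Prkg2 (adjusted p = 0.0736), Myo6 (adjusted p = 0.0647) and Oxsr1 (adjusted p = 0.0857) lost theirs under the block. Centring on the level of reference genes gave Atp1b1 0.37 (adjusted p = 0.107), 1 member higher, and 1251 genes higher and 9078 lower in all. Centring on reference gene differences, added after the data were seen, gave 7411 genes lower. On the dimmest probe set Atp1b1 was reversed, at -0.17 (adjusted p = 0.514), Cftr was at -0.049 (adjusted p = 0.561), and 1 member was higher. Without probe sets of the suffixes _s_at and _x_at Cftr was -0.049 (adjusted p = 0.59). With values raised to background Cftr was -1.14 (adjusted p = 0.114), Kcnq1 -1.78 (adjusted p = 0.0525), and 2 members were lower. No value of Cftr or Kcnq1 was itself raised, so only the shared variance estimate and the adjustment across genes changed. In the same order of lists as above, with water channels last, the centring on reference gene levels called 14, 8, 6, 3, 12 and 4 genes as lower (5, 1, 2, 3, 1 and 2 as deposited). Centring on reference gene differences called 12, 7, 4 and 6 as lower for channels, pump, sodium entry and receptors. On the dimmest probe sets 6 channel genes were higher and 0 sodium entry genes lower, and 8 scaffold and kinase genes were higher, as with values raised to background. The causes were not tested. Apart from leaving out arrays, 65 values of member differences over these settings kept direction and call, 6 lost the call and 1 reversed. Many of these could not turn direction. Block, weights and variance prior leave the difference as it is, and Kcnq1, Kcne3 and Slc34a2 have 1 probe set each, so the tally does not measure robustness. Among the list genes, 6 turned direction in at least 1 setting, Nedd4l, Oxsr1, Vipr1 and Gucy2c under centring and Slc9a8 and Slc20a2 on the dimmest probe set.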

Other observations

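Guca2a, which encodes guanylin, the second peptide that acts on Gucy2c, was at log2 9.71 on both stem arrays but at 8.61 and 10.95 on the enterocyte arrays, a difference of 0.07 ± 0.92 (SE, adjusted p = 0.972 by limma). The enterocyte array with the higher Guca2a, replicate 2, also had the higher summed intensity of Paneth markers (2845 against 381) and of goblet markers (1106 against 562). Its lymphocyte sum was higher too (7988 against 5971). The enteroendocrine sum (638 against 751) and the tuft sum (1766 against 2761) were instead lower in replicate 2. Within the Paneth and goblet sums Pla2g2a, Fcgbp and Zg16 were also lower in replicate 2. These are values of 2 arrays, chosen after they were seen, and no relation between them was tested.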
